A study of Mus musculus with 5 samples.

Results

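The genes of the Bcl2 family set the threshold at which a cell commits to apoptosis, and 10 of them were examined here among 21938 protein-coding genes of the GENCODE M21 annotation of the mouse genome (mm10). They were chosen by name and by function and not by a cut on a measured value, though with earlier results of these data known. Bcl2, Bcl2l1 (which encodes Bcl-xL), Bcl2l2 (Bcl-w) and Mcl1 are pro-survival, and Bcl2l11 (Bim), Bak1, Bok, Bid, Bad and Bmf are pro-death. The data are the sites at which Gfi1 and Lsd1 were found by ChIP-seq in MG medulloblastoma, a mouse tumor made by transferring Myc and Gfi1 with retroviruses into Prominin1+ cerebellar stem cells of C57BL/6 pups and transplanting these cells into the cerebella of immunodeficient NSG mice. Both factors were immunoprecipitated from the same 2 tumors, numbered 39 and 41, so that there are 4 libraries and 1 peak list for each. Both transgenes are carried by retroviral vectors and present in every tumor examined, so that the peaks describe tumors with ectopic Gfi1 and include no tumor or stem cell without it. The input DNA is labelled as pooled MGB tumor, a name that the labels do not expand, and has no peak list of its own.

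Apoptosis through the mitochondrion is decided by the balance of these proteins. Bak1 and Bax, once active, open pores in the outer mitochondrial membrane, and Bok can also form such pores. Pro-survival members hold the pore formers in check, and the BH3-only members (Bcl2l11, Bid, Bad and Bmf) release that check by binding the pro-survival proteins, with Bcl2l11 and Bid also able to activate the pore formers. Gfi1 is a zinc finger repressor that recruits the histone demethylase Lsd1 and the corepressor CoREST through its SNAG domain, and Bcl2 family genes are known among its targets in blood cells. ChIP-seq gives the place of a factor on the chromatin and not the output of the gene, and no expression level was used here.

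Each list gives peaks with a width and a score written by the peak caller MACS. The lists hold between 25078 peaks (Gfi1, tumor 41) and 36836 peaks (Gfi1, tumor 39), with scores that reach 3233. The lists hold no read counts. The study states the mapped reads of each library but not the reads under a peak, so that no counting interval is given for a peak, and a gene without a peak is only a gene with no listed peak. Because the scores of the 4 lists have different scales, each score was turned into a percentile, the share of peaks in its own list with that score or a lower one. A promoter peak is a peak with any base within 1000 bp of a transcription start site (TSS) of the gene, and where a gene had several, the highest-scoring was taken. Both factors came from the same 2 tumors. No test was run on so few samples, and each value is given by tumor, with the mean ± SD over the 2 tumors where values are pooled.

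All 10 members had a promoter peak of Gfi1 and of Lsd1 in both tumors. Of all protein-coding genes, 53.1% had a promoter peak in all 4 lists. With the midpoint of the peak, in place of any base, required within 1000 bp of a TSS, the member count was 7. The share over all genes was not determined for midpoints. Over the members, the mean percentile of the 4 lists ran from 63.5 for Bak1 to 99.4 for Bad, with a median of 87.5, and 6 of the 10 members lay above the median of 82.0 over the 11653 genes with a promoter peak in all 4 lists. The members are rich in annotated starts, with a median of 5 TSSs against 3 over all protein-coding genes, and more starts give a gene more places at which a peak can count. The order within the family cuts across the functional classes. Bad, Bcl2l1, Bid and Mcl1 lay highest, above 77.8% or more of the genes with a promoter peak in all 4 lists. Bcl2l2, Bcl2 and Bak1 lay lowest, above 35.6% of them or fewer. The place of Bad rests on a peak at its downstream TSSs that also comes within 1000 bp of a TSS of Plcb3.

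**Figure D1:**
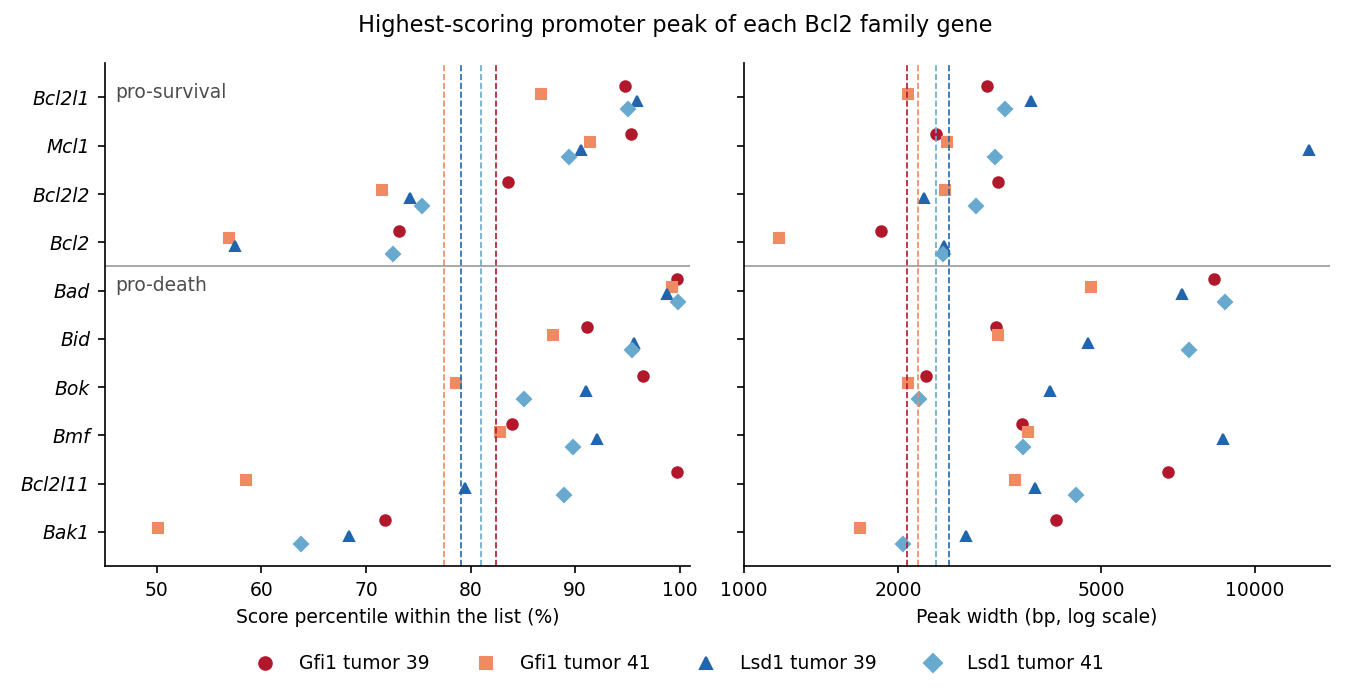
Score percentile within the list (left) and width (right, log scale) of the highest-scoring promoter peak of each member, with 1 point for each library and, as dashed lines, the median over all protein-coding genes with a promoter peak in that library. In the left panel, Bcl2, Bcl2l2 and Bak1 lie mostly left of the dashed lines, and the points of Bcl2l11 are spread widest, from 58.5 to 99.7.

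Among the pro-survival members, Bcl2l1 and Mcl1 stood apart from Bcl2 and Bcl2l2. Bcl2l1, whose protein Bcl-xL guards the outer mitochondrial membrane, lies on chromosome 2 from 152780668 to 152831728 on the minus strand. Its Gfi1 promoter peak was at percentile 94.8 in tumor 39 and 86.8 in tumor 41. The Lsd1 peak was at 95.9 and 95.1 in the same order. All 4 values were in the upper 20% of their lists. The 4 peaks shared a stretch of 2044 bp that holds 8 of the 9 annotated TSSs of the gene.

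Mcl1, a short-lived protein that cells must keep renewing to survive, lies on chromosome 3 from 95658788 to 95663176 on the plus strand. Its percentiles in tumors 39 and 41 were 95.3 and 91.4 (Gfi1) and 90.5 and 89.4 (Lsd1), again all in the upper 20%. The 2 tumors were close for both factors, at 93.4 ± 2.7 for Gfi1 and 90.0 ± 0.76 for Lsd1 (SD, n = 2 tumors). The width was less alike. The Mcl1 promoter peak spanned 2379 and 2496 bp for Gfi1 and 3103 bp for Lsd1 in tumor 41, but 12726 bp for Lsd1 in tumor 39, a width reached by the promoter peak of 1.01% of the genes that had one in that list. Under that single broad peak lay 5 separate Gfi1 peaks of tumor 39, 4 of Gfi1 in tumor 41 and 3 of Lsd1 in tumor 41.

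Bcl2l2 (chromosome 14, 54883377 to 54888234, plus strand), a relative that is required for sperm production, was at percentiles 83.6 and 71.6 for Gfi1 and 74.2 and 75.3 for Lsd1. Only the Gfi1 peak of tumor 39 was in the upper 20%. Its 5 TSSs lie within 130 bp and were all under the stretch of 2188 bp shared by the 4 peaks. The same peaks come within 1000 bp of a TSS of Gm20521, and these data cannot assign the peak to either gene.

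Bcl2, the founding member of the family, lies on chromosome 1 from 106538178 to 106714274 on the minus strand and had the lowest values of the pro-survival class. Its Gfi1 percentiles were 73.2 and 56.9, its Lsd1 percentiles 57.4 and 72.6, and no peak was in the upper 20%. Gfi1 was higher in tumor 39 and Lsd1 higher in tumor 41, so that the means over the tumors were the same to the first decimal, 65.0 ± 11.5 for Gfi1 and 65.0 ± 10.7 for Lsd1 (SD, n = 2). The Gfi1 peak of tumor 41, at 1170 bp, was also the narrowest of the highest-scoring promoter peaks of the members. The stretch common to all 4 peaks was 1013 bp long and held the 5′ end of the gene, while the second TSS, 1095 bp further in, lay outside it.

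The pro-survival promoters with the highest and the lowest mean percentile are shown here as the 250 bases before the 5′ end of the gene, read from the GRCm38.p6 (mm10) genome of RefSeq on the minus strand, 5′ to 3′. The core motif of Gfi1 is AATC, which reads GATT on the opposite strand, and both forms are in capitals.
Bcl2l1, chr2:152831729-152831978: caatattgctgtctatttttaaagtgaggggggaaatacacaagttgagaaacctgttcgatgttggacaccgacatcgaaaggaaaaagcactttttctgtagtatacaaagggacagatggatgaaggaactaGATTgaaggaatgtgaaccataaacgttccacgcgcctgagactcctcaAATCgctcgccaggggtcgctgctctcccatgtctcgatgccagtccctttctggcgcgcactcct
Bcl2, chr1:106714275-106714524: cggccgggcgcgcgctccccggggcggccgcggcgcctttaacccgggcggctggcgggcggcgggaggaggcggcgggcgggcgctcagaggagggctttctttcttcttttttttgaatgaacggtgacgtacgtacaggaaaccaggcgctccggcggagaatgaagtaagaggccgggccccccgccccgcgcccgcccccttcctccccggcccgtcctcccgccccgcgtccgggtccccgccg
The Bcl2l1 window holds AATC or GATT at 2 places and has a GC content of 47.6%. The Bcl2 window holds neither form, has a GC content of 74.8% and carries 38 CpG dinucleotides against 12 for Bcl2l1. The core is short and common, and 69.5% of the 250-base windows before the 5′ ends of all 21938 protein-coding genes hold it on either strand. It was present in 6 of the 10 members and the longer form AAATCA in none, against 12.3% of all genes.

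Among the pro-death members, the gene with the highest values was Bad and the gene with the lowest was Bak1. Bad encodes a BH3-only protein whose killing activity is switched off by survival-factor kinases, and it lies on chromosome 19 from 6941861 to 6951899 on the plus strand. It has 9 TSSs in 2 clusters, 7 of them within 1018 bp of the 5′ end and the other two 8614 and 8906 bp downstream. The highest-scoring peak was at the downstream cluster in every list, at Gfi1 percentiles of 99.7 and 99.2 and Lsd1 percentiles of 98.7 and 99.8. In Gfi1 of tumor 39 and Lsd1 of tumor 41 its score of 3100 was that of 805 and 419 peaks, and the share of peaks with a strictly lower score was 97.5% and 98.5%. That peak also comes within 1000 bp of a TSS of the neighbouring phospholipase gene Plcb3, and these data cannot assign it to either gene. The mean percentile of 99.4 for Bad rests on this peak. The separate peak at the 5′ end of Bad was at percentiles 92.5 and 88.6 for Gfi1 and 86.7 and 97.1 for Lsd1. This peak also comes within 1000 bp of a TSS of Gpr137. The 2 peaks of Bad were each in the upper 20% of all 4 lists, and both had a high-confidence form for both factors, as defined further on.

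The 250 bases before the 5′ end of Bad, on the plus strand, hold 1 GATT and 1 AATC 4 bases apart. They are shown for comparison with the pro-survival promoters. These bases lie under the peak at the 5′ end and not under the higher-scoring downstream peak.
Bad, chr19:6941611-6941860: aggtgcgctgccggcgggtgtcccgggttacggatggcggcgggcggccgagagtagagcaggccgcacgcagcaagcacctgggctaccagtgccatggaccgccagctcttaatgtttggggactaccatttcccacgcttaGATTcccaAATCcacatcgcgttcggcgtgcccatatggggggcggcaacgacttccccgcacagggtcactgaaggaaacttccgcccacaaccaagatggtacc
The GC content of this window is 62.8%. The corresponding window of Bak1 lies in an annotated exon of Ggnbp1 and is not shown.

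Bak1 (chromosome 17, 27019810 to 27029009, minus strand), the pore former itself, was at percentiles 71.8 and 50.2 for Gfi1 and 68.4 and 63.8 for Lsd1, with no peak in the upper 20%. Its peaks come within 1000 bp of a TSS of Ggnbp1, which is transcribed in the opposite direction. Bok (chromosome 1, 93685660 to 93695764, plus strand), a Bak1 relative that can form pores without the usual activators, was at 96.5 and 78.6 for Gfi1 and 91.0 and 85.1 for Lsd1. All but the Gfi1 peak of tumor 41 were in the upper 20%. The 2 pore formers thus differed by more than either of them did between tumors, with Bok above Bak1 by 24.7 and 28.5 percentile points for Gfi1 and by 22.7 and 21.3 points for Lsd1 in tumors 39 and 41.

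The BH3-only genes other than Bad lay between these limits. Bid, whose protein is cut by caspase 8 and carries the signal of death receptors to the mitochondrion, lies on chromosome 6 from 120891930 to 120916853 on the minus strand. Its Gfi1 percentiles were 91.2 and 87.8 and its Lsd1 percentiles 95.6 and 95.4, all in the upper 20%. The Bid peaks also come within 1000 bp of a TSS of the gene model Gm44260. Bmf (chromosome 2, 118528757 to 118549687, minus strand), a sensor linked to the cytoskeleton and cell anchorage, was at 83.9 and 82.8 for Gfi1 and 92.1 and 89.8 for Lsd1, likewise all in the upper 20%. Its 8 TSSs are spread over 5100 bp, and in 3 of the 4 lists 2 adjoining peaks lay over this part of the gene, with 1 TSS in the gap between them in the Gfi1 list of tumor 39. They were a single peak of 8641 bp for Lsd1 in tumor 39.

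Bcl2l11 was the member with the largest Gfi1 difference between the tumors. It encodes Bim, a potent BH3-only protein with several splice forms, and lies on chromosome 2 from 128126038 to 128162547 on the plus strand. Its Gfi1 percentile was 99.7 in tumor 39 and 58.5 in tumor 41, with scores of 3100 and 225.3 and widths of 6758 and 3388 bp. The score of 3100 was that of 805 peaks, and 97.5% of the peaks of that list had a strictly lower score. The Lsd1 percentile was 79.5 in tumor 39 and 88.9 in tumor 41, so that the tumors stood in the opposite order. That Lsd1 difference, -9.4 points, was smaller than the -15.1 points of Bcl2. The Gfi1 difference was 41.2 points, and 5.34% of the genes with a promoter peak in all 4 lists differed as much or more in either direction. The 4 peaks still shared 3370 bp, and all 6 TSSs of the gene lay within that stretch.

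Differences between the tumors were not particular to these genes. For Gfi1, all 10 members had a higher percentile in tumor 39 than in tumor 41, by 0.50 to 41.2 points with a median of 10.0, while the median over the 11653 genes was 7.39 points and 79.5% of them were higher in tumor 39. For Lsd1, 6 of the 10 members were higher in tumor 39, against 32.9% of all these genes. The median Lsd1 difference was 0.49 points over the members and -2.31 over all these genes. Gfi1 lay above Lsd1 for 7 of the 10 members in tumor 39 and for 1 of 10, Mcl1, in tumor 41. Over all these genes the share with Gfi1 above Lsd1 was 72.5% and 28.3%. The order of the percentiles was the same in both tumors for 4 of the 10 members (Gfi1 higher at Mcl1, Lsd1 higher at Bcl2l1, Bid and Bmf) and for 39.5% of all these genes. The lists differ in length, so that a higher percentile is a higher place in its own list and not a larger amount of the factor.

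The highest-scoring peaks of the 4 lists overlapped at every member. Peaks were taken for lying near a TSS, so that such overlap is partly built in. The share over all genes was not determined. At 9 of the 10 members the stretch common to all 4 highest-scoring peaks held the 5′ end of the gene, Bad being the exception described above, and this stretch was between 1013 bp (Bcl2) and 4780 bp (Bad) long. Within a tumor, the Gfi1 peak and the Lsd1 peak shared between 18.7% (Mcl1) and 86.5% (Bad) of the length they covered together in tumor 39, and between 42.3% (Bid) and 97.6% (Bmf) in tumor 41.

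**Figure D2:**
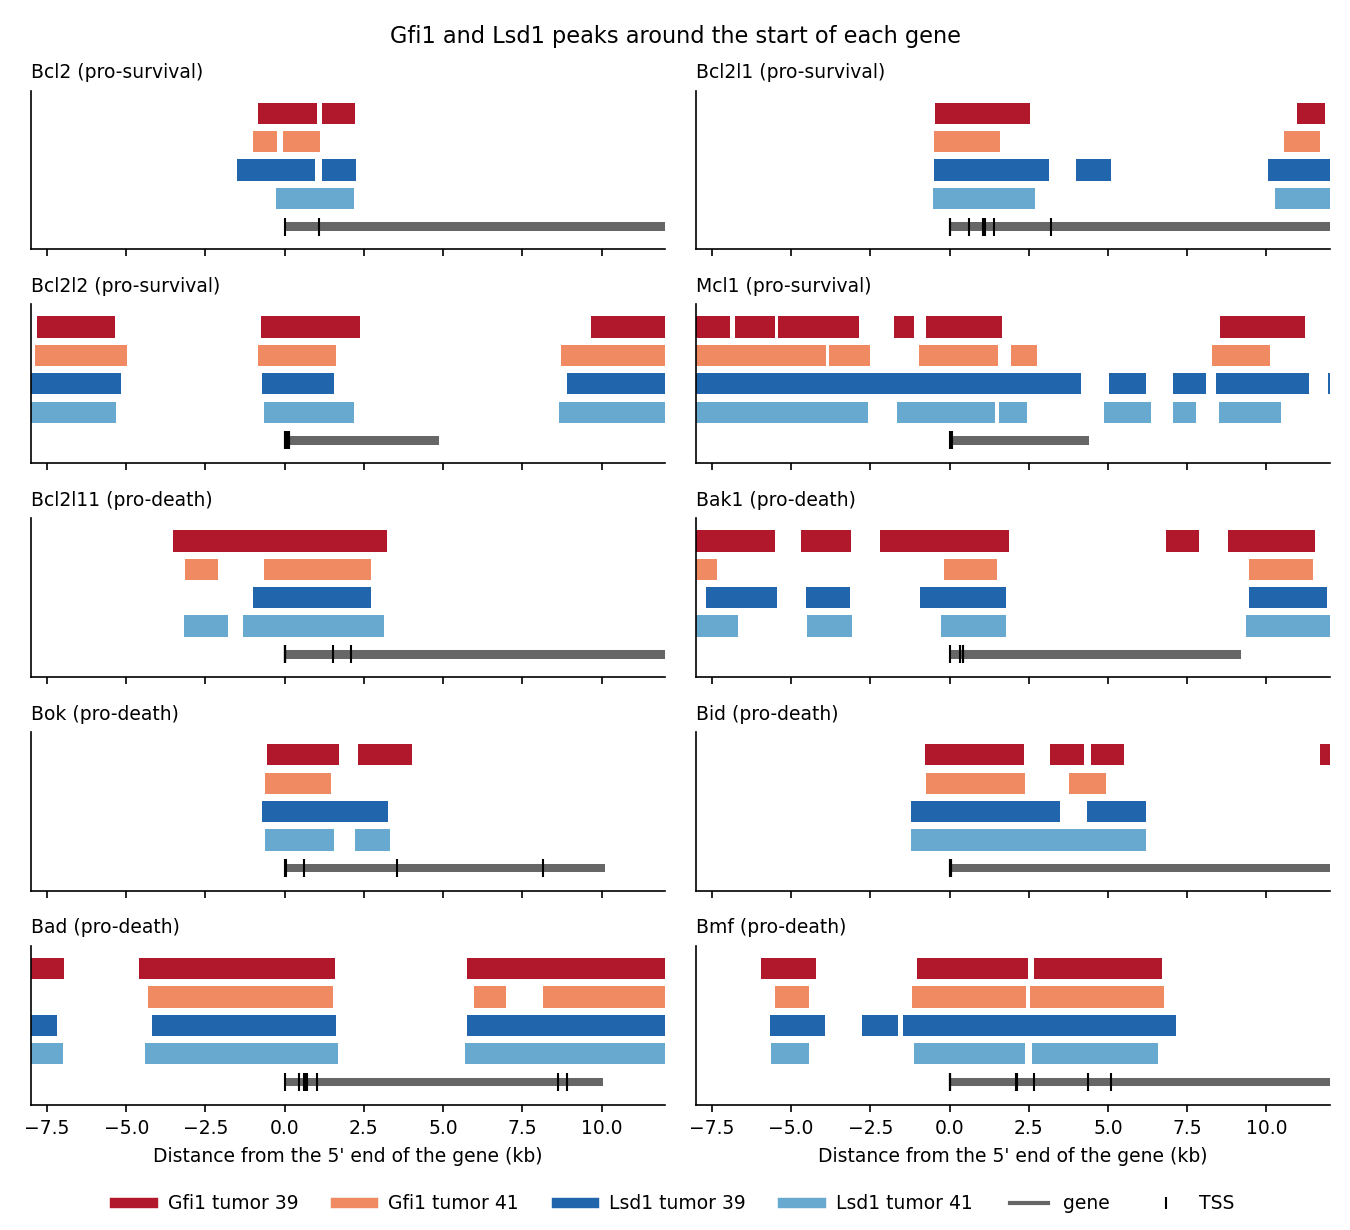
Peaks of the 4 libraries from 8 kb before to 12 kb after the 5′ end of each member, in the direction of transcription, with the gene as a grey bar and its TSSs as black ticks. Every library has a peak over the 5′ end of each gene, Bad has a further peak at its downstream TSSs, and the Lsd1 peak of tumor 39 at Mcl1 runs out of the panel to the left.

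A stricter set was then formed for each factor from peaks in the upper 20% of tumor 39 of which at least 50% of the length lay in upper 20% peaks of tumor 41. This high-confidence set held 4387 peaks for Gfi1 and 5181 for Lsd1. Gfi1 high-confidence peaks were at the promoters of 5 members, Bcl2l1, Mcl1, Bid, Bad and Bmf, against 22.9% of all protein-coding genes. Lsd1 high-confidence peaks were at the same 5 and at Bok, against 25.9% of all genes. Both sets thus held 2 of the 4 pro-survival members, and 3 and 4 of the 6 pro-death members. Bcl2, Bcl2l2, Bcl2l11 and Bak1 were in neither. In the single Gfi1 lists, 8 members had an upper 20% peak in tumor 39 and 5 in tumor 41, where the shares over all genes were 36.2% and 24.6%. In the Lsd1 lists the counts were 6 and 7 members, where the shares were 28.1% and 32.2%.

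The classes were then set side by side. In all 4 libraries the median percentile of the pro-survival members was below that of the pro-death members, and in all 4 the ranges of the classes overlapped. For Gfi1 the medians were 89.2 against 93.8 in tumor 39 and 79.2 against 80.7 in tumor 41. For Lsd1 they were 82.3 against 91.5 in tumor 39 and 82.4 against 89.3 in tumor 41. The pro-survival minus pro-death difference was -3.1 ± 2.2 points for Gfi1 and -8.1 ± 1.6 points for Lsd1 (SD, n = 2 tumors). Both classes lay above the median over all protein-coding genes with a promoter peak, at 82.5 and 77.4 in the Gfi1 lists and 79.0 and 81.0 in the Lsd1 lists.

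The percentile contrast rested on a few genes. The pro-survival range ran from 56.9 to 91.4 and the pro-death range from 50.2 to 99.2 for Gfi1 in tumor 41, and the lowest gene of both classes lay far below the other class's median in each library. Leaving out Bcl2l2 turned the Gfi1 difference to 3.5 points. Leaving out peaks that also come within 1000 bp of a TSS of another gene removes every promoter peak of Bcl2l2, Bak1, Bid and Bad. That turned the Gfi1 difference to 3.2 points and brought the Lsd1 difference to 0.018 points.

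The pro-death members had the wider peaks by the class median. The median width was 2685 bp for the pro-survival and 3786 bp for the pro-death members in tumor 39, and 2280 against 3263 bp in tumor 41, a difference of -1042 ± 83 bp (SD, n = 2). For Lsd1 the medians were 3052 against 4336 bp in tumor 39 and 2975 against 3984 bp in tumor 41, a difference of -1146 ± 194 bp. With upper 20% peaks only the Lsd1 difference turned to 478 bp, without peaks at a TSS of another gene it was -366 bp, and by peak midpoint it was -696 ± 1155 bp. Over all protein-coding genes with a promoter peak the median width was between 2086 and 2516 bp in the 4 lists. The ranges of the classes overlapped in every list, and the widest peak of all was that of a pro-survival gene, Mcl1. The pro-death genes have the more spread starts, over 2093 to 19285 bp in 5 of the 6 genes against 69 to 3193 bp in the pro-survival genes, and the part of this spread in the width was not tested.

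**Figure D3:**
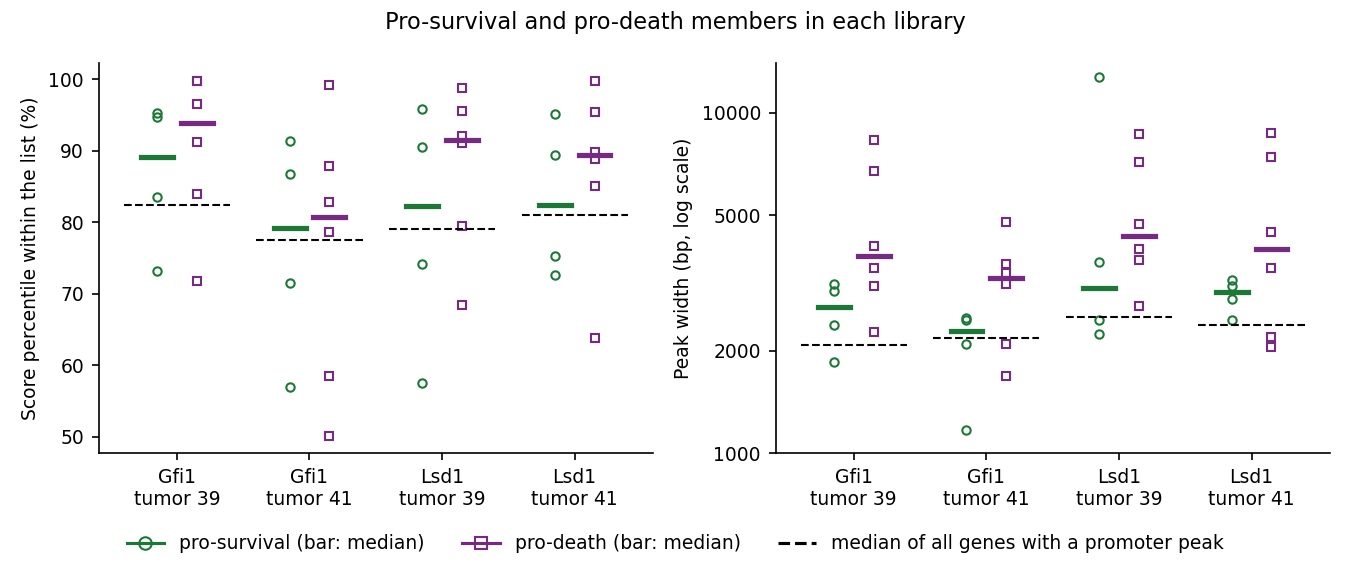
Percentile (left) and width (right, log scale) of the highest-scoring promoter peak of the 4 pro-survival and 6 pro-death members in each library, with class medians as bars and the median over all genes with a promoter peak as a dashed line. The pro-death bar is the higher in each library, and the points of the classes overlap in each.

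Away from the promoters, the family was divided between Bcl2l1 and the rest. A gene body site was counted where peaks lay within the gene and over 1000 bp from every TSS of any gene, after joining overlapping peaks of the 4 lists. Bcl2l1 had 11 such sites, of which 3 were present in all 4 lists. No other member had a site in all 4 lists, and such a site was found in 7.85% of all protein-coding genes. Of the genes with a length from that of Bcl2l1 up to that of Bcl2, 17.4% had at least 1 such site and 3.79% had 3 or more.

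The 3 sites of Bcl2l1 all lay within introns. The strongest was 46115 bp into the gene, close to its 3′ end, with percentiles of 67.5 and 62.0 for Gfi1 and 61.6 and 61.6 for Lsd1, so that both factors and tumors were alike. The site 26837 bp into the gene was at 30.2 and 6.9 for Gfi1 and 39.2 and 41.6 for Lsd1. The site 11110 bp into the gene was at 12.2 and 17.4 for Gfi1 and 50.8 and 49.7 for Lsd1. None of the 12 peaks was in the upper 20% of its list. The central 300 bases of the stretch common to the 4 lists are given for each site, on the minus strand as the gene is read, with AATC and GATT in capitals.
Site at 46115 bp, chr2:152785433-152785732: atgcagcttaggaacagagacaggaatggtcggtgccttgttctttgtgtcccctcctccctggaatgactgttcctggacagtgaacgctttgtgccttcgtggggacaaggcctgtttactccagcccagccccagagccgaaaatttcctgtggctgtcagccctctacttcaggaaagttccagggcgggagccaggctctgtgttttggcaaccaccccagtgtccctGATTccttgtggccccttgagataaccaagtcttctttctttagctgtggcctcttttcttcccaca
Site at 26837 bp, chr2:152804387-152804686: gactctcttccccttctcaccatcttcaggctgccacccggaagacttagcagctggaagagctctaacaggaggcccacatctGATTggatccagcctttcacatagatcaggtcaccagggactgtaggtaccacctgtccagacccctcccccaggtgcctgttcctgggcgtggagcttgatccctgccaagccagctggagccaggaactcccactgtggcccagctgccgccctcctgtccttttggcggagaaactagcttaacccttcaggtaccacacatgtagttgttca
Site at 11110 bp, chr2:152820246-152820545: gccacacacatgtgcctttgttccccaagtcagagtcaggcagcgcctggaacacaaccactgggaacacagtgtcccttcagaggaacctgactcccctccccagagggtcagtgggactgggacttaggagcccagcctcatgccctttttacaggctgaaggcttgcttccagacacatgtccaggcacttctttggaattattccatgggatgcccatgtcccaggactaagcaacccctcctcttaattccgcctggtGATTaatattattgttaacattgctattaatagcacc
Each window holds the core once, as GATT, and 67.7% of the windows of this length at the 2576 gene body sites found in all 4 lists hold it at least once. Over the whole common stretches the core was found 4 times in 1928 bp, 4 times in 859 bp and 3 times in 702 bp. The longer AAATCA was found 2 times in the first and in neither of the others. Counts over the whole common stretches of the other gene body sites were not determined, so these counts show no excess of either motif.

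Bcl2 was the opposite case. It is the longest member, at 176097 bp against 51061 bp for Bcl2l1, and no list had a peak in it away from its TSSs. Among the 1174 protein-coding genes at least as long, 37.6% had no such peak in any list. Bcl2l11, at 36510 bp, also had none, nor did the short genes Bcl2l2 and Bok. Bid had 3 sites, of which the most frequent, 4681 bp into the gene, was listed in 3 libraries as a peak of its own at percentiles 37.4 and 24.1 for Gfi1 and 49.4 for Lsd1 in tumor 39. In Lsd1 of tumor 41 the promoter peak of Bid was 7420 bp wide and ran over this place. Mcl1, Bak1, Bad and Bmf had 1 site each, in 1 or 2 lists.

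**Figure D4:**
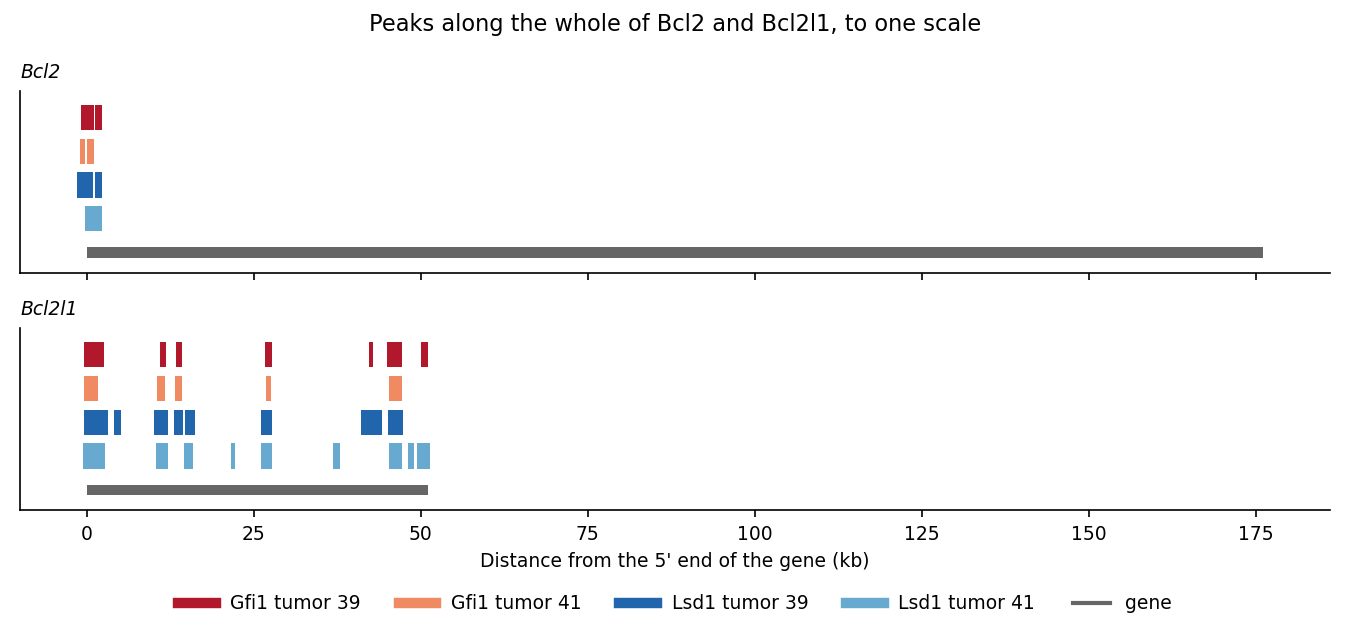
Peaks of the 4 libraries along the whole of Bcl2 and Bcl2l1, drawn to the same scale by distance from the 5′ end in kb, with the gene as a grey bar. The peaks of Bcl2 end within 3 kb of its start, while those of Bcl2l1 recur along its 51061 bp in each library.

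CpG content is a feature that the choice of members did not use. In the sequence from 500 bp before to 500 bp after the 5′ end, 8 of the 10 members had an observed to expected CpG ratio of 0.7 or more, against 34.3% of all protein-coding genes and 57.4% of those with a promoter peak in all 4 lists. The median over the members was 0.76. It was 0.55 over all protein-coding genes, 0.74 over those with a promoter peak in all 4 lists and 0.23 over the rest. The exceptions were Bcl2l2 at 0.34 and Bak1 at 0.28, both among the 3 members with the lowest percentiles. Bcl2, with a ratio of 0.87 and 106 CpG dinucleotides, was the third of them, and Mcl1, with 111 dinucleotides, was among the highest.

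The same reading was made for 15 further Bcl2 relatives. Of these, 7 had a promoter peak in all 4 lists, 3 in some of them and 5 in none, where the share in all 4 lists over all protein-coding genes was 53.1%. The genes without any were Bcl2l10, Bcl2l15, Bcl2a1a, Bcl2a1b and Bcl2a1d. The last 3 are near-identical copies, so that reads from them may not map to a single place, and their lack of a peak is uncertain. The 3 highest were Bbc3, which encodes the p53-induced BH3-only protein Puma, with percentiles of 99.7 and 99.4 for Gfi1 and 99.9 and 99.8 for Lsd1, Bnip3l, which encodes a mitophagy receptor, with 99.9 and 96.2 for Gfi1 and 94.0 and 94.5 for Lsd1, and Bcl2l12, with 92.9 and 96.1 for Gfi1 and 88.2 and 92.7 for Lsd1. The mean over the 4 lists was 99.7 for Bbc3, above that of Bad, the highest of the 10 members. Both factors had a high-confidence peak at 4 of the 15, near the shares over all genes of 22.9% for Gfi1 and 25.9% for Lsd1.

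A further list held 21 genes, most of them acting downstream of the mitochondrial step. It also holds Casp8, whose product cuts Bid before that step, and the channel genes Vdac1, Vdac2 and Vdac3. Of the 21 genes, 17 had a promoter peak in all 4 lists and none lacked it in every list, beside the same 53.1%. The 3 highest were Htra2, which encodes a protease released from the mitochondrion, Vdac1, which encodes the channel of the outer membrane, and Cycs, which encodes cytochrome c. Their mean percentiles were 97.3, 96.8 and 93.4. A high-confidence peak was found at 11 of the 21 for Gfi1 and at 12 for Lsd1, beside the same 22.9% and 25.9%. The median of the mean percentile, over genes with a peak in all 4 lists, was 87.5 for these genes, 90.3 for the further relatives and 87.5 for the 10 members.

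**Figure D5:**
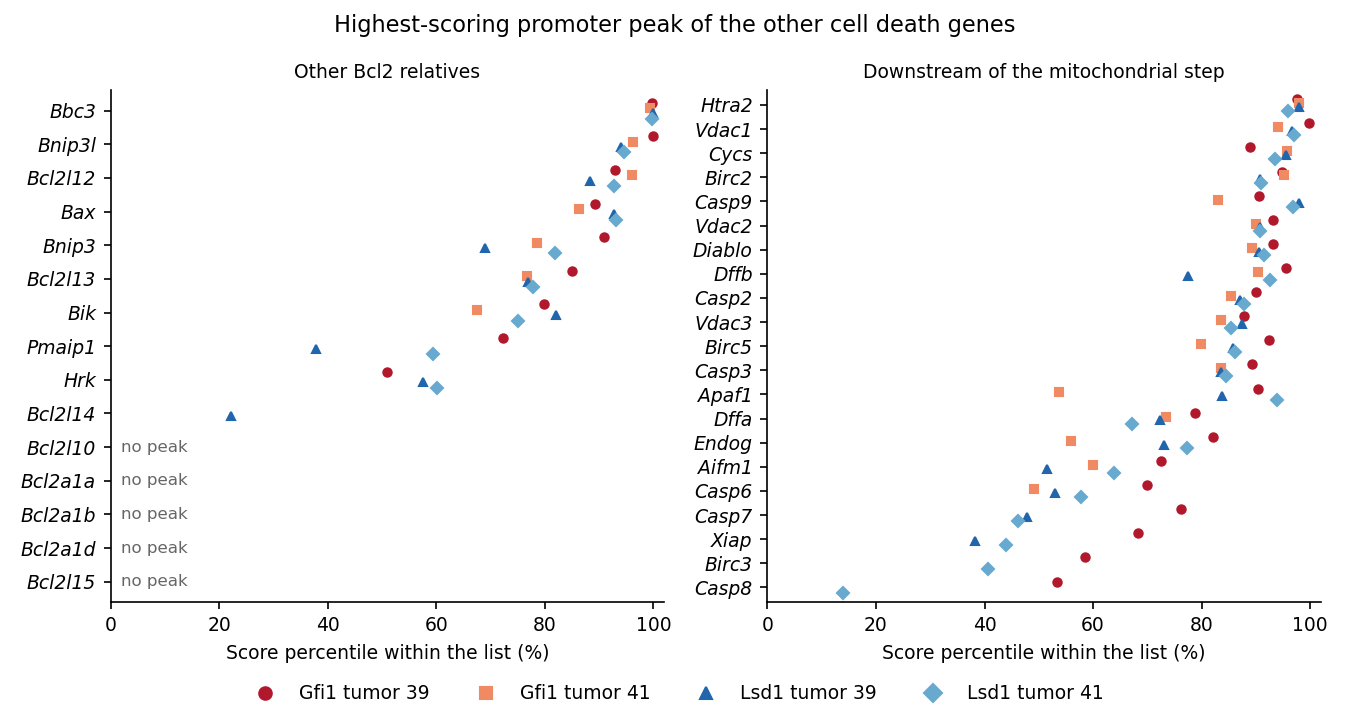
Score percentile of the highest-scoring promoter peak of the 15 further Bcl2 relatives (left) and of the 21 genes listed as downstream of the mitochondrial step (right), 1 point for each library with a peak. The right panel also holds Casp8 and the Vdac genes. Bbc3 and Htra2 lead the lists, and 5 relatives have no peak in any library.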

How the data were processed

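Gfi1 and Lsd1 ChIP-seq libraries of MG tumors 39 and 41 were grouped by the antibody in the labels. By the study's methods, the authors used BWA (0.6.2) for alignment to mm10 and Picard for merging and duplicate removal, and called peaks in each library against input with MACS at default settings. The deposited lists give each peak's position and a MACS score, whose definition is not given in the sources used here. Genes, TSSs and exons were taken from GENCODE M21 and sequence from RefSeq GRCm38.p6, the same assembly as mm10. Positions are 1-based. From the lists, promoter peaks, percentiles, widths, high-confidence peaks and gene body sites were computed in Python 3.11.15 with numpy 2.4.6 and pysam 0.24.0, with functions tested on planted peaks. The members, the 2 further gene lists and the alternatives were chosen with earlier results of these data known. Every member was named, and of the further lists the genes without a peak and the 3 highest in each. The window, TSS set, score filter, overlap, members and replicates were varied. The input, which has no list, was not analysed here.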

Additional observations from a re-analysis of the deposited data

How the results depend on the processing

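Of 112 alternative values, 80 stayed within the tumor spread or, for counts, within 1.5 times. Some of these 80 could not move. Leaving out a replicate of 1 factor leaves the percentile, width and high-confidence results of the other as they were. A class difference from 1 tumor alone always lies within the spread of the 2. With a library left out, the count of members with a promoter peak cannot fall. The count of 80 is therefore not a measure of stability. The TSS window (500 or 2000 bp) and protein-coding transcripts, tried on the promoter counts and class differences, changed none of these. With upper 20% peaks only, 5 members had a promoter peak in all 4 lists, no gene body site remained (0), and the pro-survival minus pro-death differences were -0.23 points and -905 bp for Gfi1 and 0.92 points and 478 bp for Lsd1, turned in sign. With the upper 40%, 7 members had a promoter peak in all 4 lists, and the Lsd1 differences were -4.0 points and -849 bp. By peak midpoint the differences were -0.74 points and -835 bp for Gfi1 and -10.7 points and -696 bp for Lsd1. The midpoint counts were 7 members with a promoter peak in all 4 lists, and 4 with a high-confidence promoter peak for Gfi1 and 4 for Lsd1. High-confidence counts were 2 (Gfi1) and 3 (Lsd1) from the upper 10%, and 9 and 10 with no score filter. Class means gave -6.0 points for Lsd1, and the widest peak -1177 bp for Gfi1. With 1 member left out, the differences ran from -9.7 (without Bcl2l1) to 3.5 points (without Bcl2l2) and from -1290 (Bcl2l2) to -794 bp (Bcl2) for Gfi1, and from -15.7 (Bcl2l1) to -0.47 points (Bcl2l2) and from -1566 (Bak1) to -727 bp (Bid) for Lsd1. An alternative chosen after seeing the data, without peaks at a TSS of another gene, gave 3.2 points and -1209 bp for Gfi1 and 0.018 points and -366 bp for Lsd1. With 1 replicate left out, the counts were 10 members with a promoter peak, 5 to 8 with a Gfi1 and 6 to 7 with an Lsd1 high-confidence peak, and 3 to 5 gene body sites, 8 without Gfi1 of tumor 41 and 5 without Lsd1 of tumor 41. The differences were -4.7 to -1.6 points and -1101 to -983 bp for Gfi1, and -9.2 to -7.0 points and -1284 to -1009 bp for Lsd1. The cause of these changes was not tested. No paired test was run, since no result comes from a test, and factors were set side by side within a tumor as values only. The reads under a peak are not in the lists, which limits what a missing peak says.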
